A study of Salmo salar with 8 samples.

Results

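Integrins are the cell surface receptors with which leukocytes hold on to matrix and to other cells, and 10 probes for 7 integrin subunits were described here in cultured head kidney leukocytes (HKLs) of Atlantic salmon. The probes were all those whose symbol began with ITGA or ITGB in the study's own list of probes that differed between the days of culture, so they were selected on the difference in log2 ratio between Day 1 and Day 5 in the very arrays described below. That list held 2139 of the 43689 probes on the array as used here, 2039 of them with a symbol and 1450 symbols in all. Of the 10 integrin probes, 9 were for alpha subunits (6 symbols: ITGAE, ITGA1, ITGA2, ITGA5, ITGA4 and ITGA2B) and 1 was for a beta subunit (ITGB5). No other symbol in the list (0) began with ITG. The scanner files give no gene names, so integrin probes outside the list could not be told from other probes and were not analysed here. All 10 passed the filters on spots and were in the fit, and of their 80 spots 0 were flagged and 0 were saturated.

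The head kidney is where teleost fish make their blood cells, and adherent HKLs are the leukocytes isolated from it that attach to a culture plate. Cells from 4 untreated fish were isolated on a Percoll gradient, seeded in L-15 medium with foetal bovine serum and an antibiotic, and rinsed to remove whatever had not attached. RNA of the cells of each fish was taken at 24 h, called Day 1, and at 120 h, called Day 5, which gave 4 Day 1 and 4 Day 5 samples, and each sample was hybridised to its own 44K oligonucleotide array. The sample was labelled with Cy5 and a pool of all samples with Cy3, with no dye swap. The fifth fish of the study was left out by its authors and was not analysed here, so every count of fish below covers the 4 that were kept. The authors name a technical error in labelling for the animal removed after hybridization. Elsewhere they state that Fish 5 was left out because its samples did not cluster by day. The fish differed from each other only by number in the labels, and their age is not given in the sources used here. Adherent HKLs are a mixed population, and in such bulk samples fewer cells of a type and less RNA per cell cannot be told apart.

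Every integrin is a heterodimer of an alpha and a beta chain, and the alpha chain largely sets which ligand is bound. In mammals, ITGA1 and ITGA2 pair with ITGB1 and bind collagens and laminins, ITGA5 pairs with ITGB1 and binds fibronectin, and ITGB5 pairs with the alpha V chain and binds vitronectin. On blood cells of mammals, ITGA4 binds VCAM1 and fibronectin, ITGAE pairs with ITGB7 and binds E-cadherin, and ITGA2B forms the fibrinogen receptor of platelets, whose counterparts in fish are thrombocytes. Binding activates kinases and adaptors under the membrane that link integrins to actin, so that a cell can spread and crawl.

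The identity of the probes rested on the contigs from which they were designed, as the study annotated them. To show which transcripts stand behind the names, the first 30 bases read of the 3 contigs that matched an integrin protein are given 5′ to 3′, all in lower case because no base in them is singled out.
ITGAE (C184R135): ggggcgggttgctatgactgcttctcaccg
ITGA5 (C011R061): ttggcaacgggcccagtatgatcagtcagt
ITGB5 (C248R011): cccgatgcctgtggcaccaaaagggaatgc
Each of the 3 had 1 forward reading frame without a stop over the 399 letters read. The other ITGAE contig and the ITGA1 contig had no such frame (0) and no protein match, and took their names from a matching salmon transcript. Through RefSeq's Ssal_v3.1 gene table, the 3 ITGAE probes all led to 1 gene, itgae.2, the ITGA5 probe led to LOC106583616, an integrin alpha-5-like gene, and the ITGB5 probe led to itgb5. The ITGA1 probe led to LOC106561820, an integrin alpha-1-like gene. Contigs for the probes listed as ITGA2, ITGA4 and ITGA2B were not read here, so these names rest on the study's symbols alone.

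The name of the ITGA2 probe was in doubt. Elsewhere in the study's tables the symbol ITGA2 carried the description of LOC106561814, a molybdopterin synthase catalytic subunit-like gene. In the RefSeq table this gene lies on the same chromosome as LOC106561820, the integrin alpha-1-like gene, with 1 gene between them. It is therefore called the probe listed as ITGA2 below.

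The level of a probe is given as its log2 ratio of Cy5 over Cy3 after normexp background correction and loess normalization, so that 0 is the level of the pool. Median Cy5 intensity lay between 175.7 and 593.6 over the 8 arrays, with the lowest value in the Day 1 and the highest in the Day 5 sample of Fish 1. On each array, 40.4% to 51.3% of all probes exceeded a limit set by its negative control spots (mean plus 2 SD of 153 spots in Cy5). The position of a probe on the array also moved with its ratio. In rows 1 to 20 the median log2 ratio of all probes was -0.95 in the Day 1 sample of Fish 1 but 0.38 in its Day 5 sample, and it lay between -0.16 and 0.44 in the other 6 samples. In rows 51 to 170 the medians of the 8 samples lay between -0.13 and 0.16, but smaller blocks of these rows differed more. In Fish 1 the median was 0.20 at Day 1 and -0.22 at Day 5 in rows 121 to 130. It was 0.20 and -0.26 in rows 131 to 140. The ITGA4 probe (row 121), the ITGA2B probes (rows 129 and 135) and ITGAE C184R135 (row 135) lie there. Of the integrin probes, 3 lay in rows 1 to 20: the probe listed as ITGA2 in row 5, the ITGB5 probe in row 11 and the ITGA1 probe in row 18. Values after centring each array on the median of the 5 rows on either side, chosen after seeing the data, are therefore given beside the main ones where they matter.

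**Figure D1:**
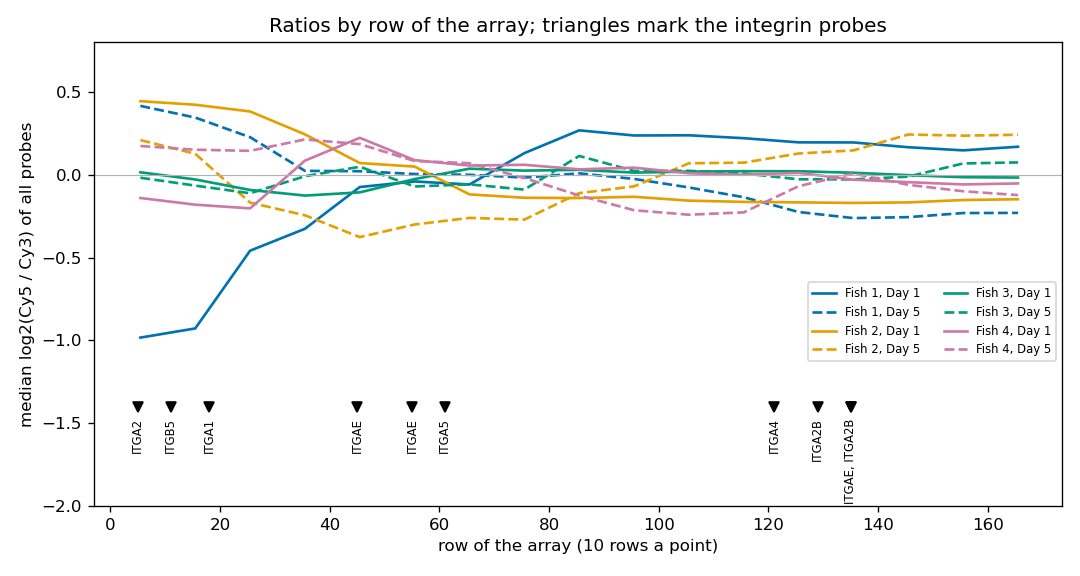
Median log2(Cy5 / Cy3) of all probes by row of the array, in blocks of 10 rows, for each fish (colour) at Day 1 (solid lines) and Day 5 (dashed lines); triangles mark the rows of the 10 integrin probes. The Day 1 sample of Fish 1 lies near -1 in the first 20 rows, where the ITGA2, ITGB5 and ITGA1 probes sit.

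Of the 10 probes, 7 for 5 subunits were higher and 3 for 2 subunits were lower at Day 5. ITGAE, ITGA1, ITGA5 and ITGB5 rose, ITGA4 fell, and the probes for ITGA2 and ITGA2B moved by amounts that did not pass the threshold. With limma, fish as a block and an adjusted p under 0.05 over all 38695 tested probes, 6 integrin probes were called higher and 1 lower. Over all tested probes 2.03% were called, 1.09% higher and 0.936% lower, but the study chose these 10 probes for this contrast on these arrays, so nothing is read from the difference and no p-value is given for a member. Each of the 10 moved one way in 4 of 4 fish, which the paired test by which the study listed them favours. The share of all probes that did so was not computed, so nothing is read from this count. Day 1 and Day 5 values did not overlap for 8 of them, 6 higher and 2 lower, against 5.33% and 6.01% of the 26008 probes with 8 values. The median fitted log2 change was 2.19 over the 7 higher and -1.30 over the 3 lower probes. Both lie away from 0 by construction, because the probes were listed for a change and are split here by its sign. Over the 1415 tested symbols of the study's list, the median absolute log2 change was 1.16. Over all tested probes, not split by sign, the median log2 change was -0.004. How the background was corrected and the spot summarized mattered to the calls over the whole array. With plain subtraction, no correction, an offset of 16 or the spot median, limma called 0 of the 10. In these settings it called at most 1 of all 38695 probes in either direction. An unadjusted p under 0.05 was found for 8 to 10 of the 10 and for 4042 to 4576 of all probes.

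**Figure D2:**
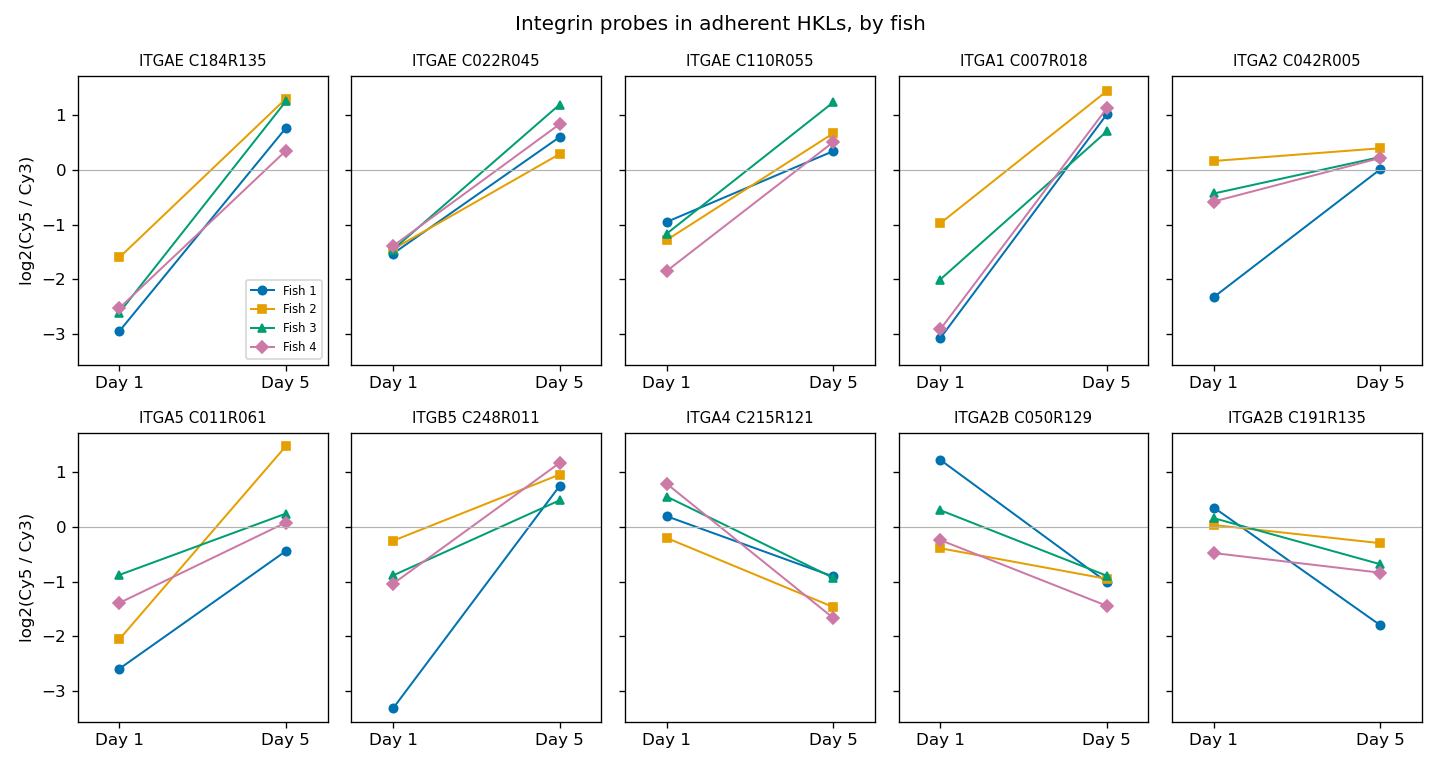
Log2(Cy5 / Cy3) of the 10 integrin probes at Day 1 and Day 5, with 1 line for each of the 4 fish; 0 is the level of the pooled reference. All lines of the ITGAE, ITGA1, ITGA2, ITGA5 and ITGB5 panels go up and all lines of the ITGA4 and ITGA2B panels go down.

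ITGAE, the alpha chain that in mammals marks lymphocytes and some dendritic cells at epithelia, was measured by 3 probes, all higher at Day 5. Probe C184R135 gave log2 ratios of -2.95, -1.60, -2.61 and -2.53 at Day 1 and of 0.77, 1.30, 1.26 and 0.35 at Day 5 in Fish 1 to Fish 4. Every Day 5 sample was thus above every Day 1 sample, with a gap of 1.95 between the groups. The mean rose from -2.42 ± 0.58 to 0.92 ± 0.45 (SD, n = 4), a fitted log2 change of 3.34 ± 0.32 (SE). At Day 1 this probe did not exceed the negative-control limit on any array (0 of 4), so its level there is uncertain. Set against a floor, its Cy5 signal was 8.47-fold higher at Day 5. The floor is, per array, the higher of the probe's own signal and the lowest normalized signal among probes that exceeded the limit. This floor can lie under the limit, so such floored folds are not strict lower bounds. They use the Cy5 channel alone, normalized by loess and Aquantile, so dye bias can enter them and the spread between fish does not. The authors' processed ratios gave a mean difference of 5.34 for the same probe.

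The other ITGAE probes were above the limit in all 8 samples. For C022R045 the Day 1 ratios lay close together at -1.53, -1.45, -1.46 and -1.39, and those at Day 5 were 0.60, 0.29, 1.19 and 0.84. The fitted log2 change was 2.19 ± 0.31 (SE). For C110R055 the ratios were -0.95, -1.28, -1.17 and -1.85 at Day 1 and 0.34, 0.67, 1.24 and 0.51 at Day 5, a fitted log2 change of 2.00 ± 0.32 (SE). Neither probe had overlapping groups, and both passed the threshold. These probes were not independent measurements: their contigs had 399 of 399 letters read in common. Compared position by position, the contig of C184R135 matched them at 98 of 399. This cannot tell a different sequence from a stretch that starts elsewhere in the same transcript, and all 3 probes led to 1 gene. Across the 8 samples the 3 probes correlated at 0.93 to 0.95. The differences of C022R045 and C110R055 were set apart by 0.19 ± 0.48 within fish (SD, n = 4), less than their spread. The size of the change of C184R135 is not set against them, since it was dim at Day 1.

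The arrays were assigned to 3 slides by a number in the name of each scanned image, since the sample labels give no slide. The slide with both samples of Fish 1 and the Day 1 sample of Fish 2 held both days. So did the slide with both samples of Fish 3 and the Day 1 sample of Fish 4. Within these slides, given in this order here and below, the day means of C184R135 differed by 3.04 and 3.82 on the log2 scale. For C022R045 the corresponding differences were 2.09 and 2.62. For C110R055 they were 1.46 and 2.74. The third slide held the Day 5 samples of Fish 2 and Fish 4 alone, where slide and day cannot be told apart.

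ITGA1, a collagen and laminin receptor chain, was higher at Day 5 in all 4 fish. Its ratios were -3.08, -0.98, -2.003 and -2.92 at Day 1 and 1.02, 1.44, 0.70 and 1.13 at Day 5. The groups did not overlap, and Fish 2 had the highest value on both days. The mean rose from -2.24 ± 0.97 to 1.07 ± 0.30 (SD, n = 4), a fitted log2 change of 3.32 ± 0.36 (SE). Cy5 exceeded the negative-control limit in 3 of 4 Day 1 samples and in all 4 Day 5 samples. Centred by rows, its Day 1 ratio in Fish 1 went from -3.08 to -2.27 and the fitted change was 3.05 ± 0.28, still past the threshold. After this centring 6 integrin probes were called higher, as before, where 1.89% of all probes were. Within slides the difference was 3.04 and 3.16, and in the authors' processed ratios it averaged 4.21.

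The probe listed as ITGA2, named for another collagen receptor chain, was the one higher probe that was not called and whose groups overlapped. It gave -2.32, 0.16, -0.43 and -0.58 at Day 1 and 0.01, 0.40, 0.24 and 0.22 at Day 5. The Day 1 sample of Fish 1 was far below the other 7, and the Day 1 sample of Fish 2 lay above the Day 5 sample of Fish 1. The fitted log2 change was 1.01 ± 0.37 (SE), and it was 0.65 ± 0.26 when arrays were centred by rows. Differences within fish were 2.34, 0.23, 0.67 and 0.80. Its signal was weak, above the limit in 2 of 4 Day 1 and 3 of 4 Day 5 samples and at most 1.23 times the limit in any sample. The difference within slides was 1.09 and 0.74. In the authors' processed ratios Fish 1 at Day 1 was at -0.78, above Fish 3 at -1.03, the days did not overlap, and the difference averaged 1.06.

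ITGA5, the fibronectin receptor chain, was clearly detected in all 8 samples. Ratios were -2.59, -2.05, -0.88 and -1.39 at Day 1 and -0.44, 1.48, 0.24 and 0.08 at Day 5. No Day 5 value fell among the Day 1 values, and Fish 2 at Day 5 was well above the other samples, with a Cy5 intensity 16.2 times the limit. The mean rose from -1.73 ± 0.75 to 0.34 ± 0.81 (SD, n = 4), a fitted log2 change of 2.07 ± 0.39 (SE). The fish were less alike here than for ITGAE, with differences of 2.15, 3.53, 1.12 and 1.47. Without Fish 2 the change was 1.58 and no longer passed the threshold. Within slides the difference was 1.88 and 1.38.

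ITGB5, a vitronectin receptor chain and the single beta chain in the list, was dim at Day 1. It gave -3.32, -0.25, -0.89 and -1.04 at Day 1 and 0.75, 0.96, 0.49 and 1.17 at Day 5. Again Fish 1 at Day 1 stood below all others, with a Cy5 intensity of 14.4 against a limit of 159.2 on that array, but the groups did not overlap. Cy5 exceeded the limit in 1 of 4 Day 1 samples, that of Fish 2, and in all 4 Day 5 samples. The mean rose from -1.37 ± 1.34 to 0.84 ± 0.29 (SD, n = 4), a fitted log2 change of 2.21 ± 0.43 (SE). Centred by rows, the Day 1 value of Fish 1 was -2.21 and the fitted change was 1.82 ± 0.29, past the threshold as before. Without Fish 1 it was 1.598 and passed as well, whereas without Fish 4 (2.22) it did not. Within slides the difference was 2.53 and 1.45. In the authors' processed ratios the Day 1 values were -1.13, -0.70, -0.83 and -1.33, so that Fish 1 did not stand apart there, and the difference averaged 2.29.

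ITGA4, the chain of the VCAM1 receptor, which is carried by many lymphocytes and monocytes in mammals, was the one integrin probe called lower. Its ratios were 0.20, -0.20, 0.56 and 0.79 at Day 1 and -0.91, -1.46, -0.93 and -1.66 at Day 5. The groups did not overlap. The mean fell from 0.34 ± 0.43 to -1.24 ± 0.38 (SD, n = 4), a fitted log2 change of -1.58 ± 0.33 (SE). Of the 10 probes it was the farthest above its limit at Day 1, where Cy5 was 9.78 to 34.8 times the limit, and at Day 5 it was still 3.02 to 6.10 times the limit. The call was lost when Fish 2 (-1.68), Fish 3 (-1.61) or Fish 4 (-1.28) was left out, and kept without Fish 1. Within slides the difference was -0.90 and -1.60.

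ITGA2B, the alpha chain of the thrombocyte fibrinogen receptor, had 2 probes, both lower at Day 5 in 4 of 4 fish and neither past the threshold. C050R129 gave 1.23, -0.39, 0.31 and -0.24 at Day 1 and -1.01, -0.95, -0.89 and -1.44 at Day 5. These groups did not overlap, and the fitted log2 change was -1.30 ± 0.34 (SE). C191R135 gave 0.36, 0.04, 0.16 and -0.48 at Day 1 and -1.80, -0.30, -0.68 and -0.84 at Day 5. Here Fish 2 at Day 5 lay above Fish 4 at Day 1, and the fitted log2 change was -0.92 ± 0.36 (SE). Both probes exceeded the limit in all 4 Day 1 samples and in 0 of 4 Day 5 samples. Set against the floor, Cy5 was 2.21-fold lower for C050R129 and 1.72-fold lower for C191R135 at Day 5. Here the probes' own normalized signal was not under the floor, although their intensity was under the limit. These floored folds therefore equal the measured Cy5 folds, and for probes short of the threshold they are no proof of a change. Fish 1 had the largest difference with either probe, -2.24 and -2.15. Both probes lie in rows where the median of all probes in Fish 1 was also lower at Day 5. Centred by rows, C050R129 passed the threshold at -1.25 ± 0.28, where 1.63% of all probes were called lower, and C191R135 did not at -0.88 ± 0.29. Paired SAM called C050R129 lower, as it did 592 of 26008 probes. The study listed its probes with a paired SAM on these arrays, so this call repeats the kind of test that selected the probe and adds no support. With slide as a random block both were called lower, at -1.67 and -1.44, as were 1348 of 38695 probes. Within slides the differences were -1.43 and -0.93 for C050R129 and -1.99 and -0.52 for C191R135. The probes correlated at 0.73 over the 8 samples.

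**Figure D3:**
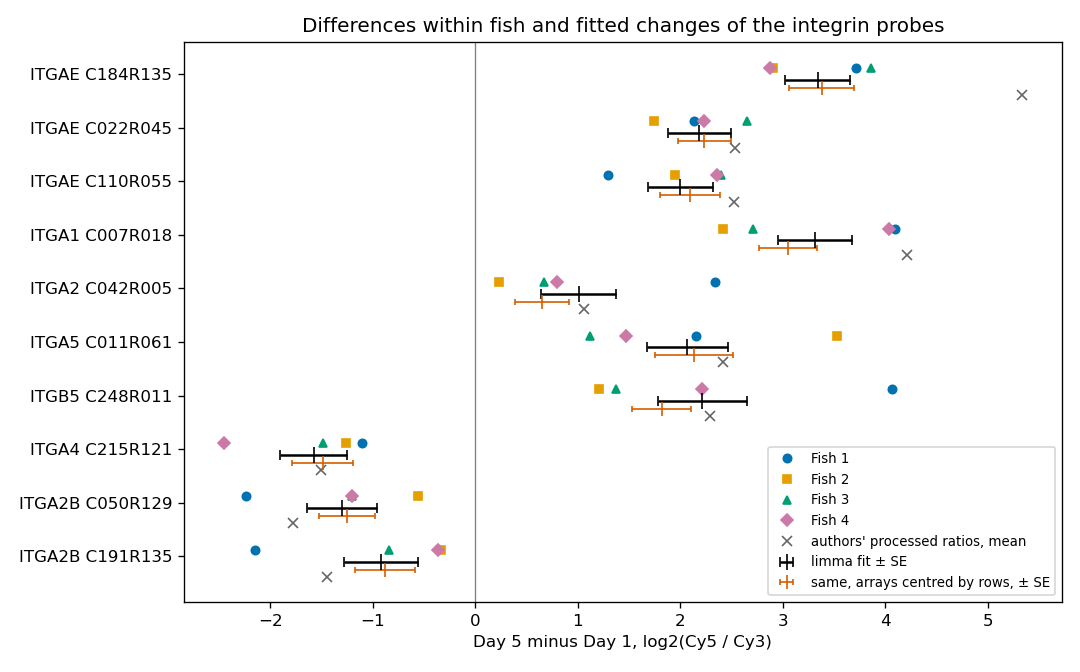
Day 5 minus Day 1 in log2(Cy5 / Cy3) for each integrin probe: the differences within Fish 1 to Fish 4 (coloured symbols), the limma estimate ± SE (black), the same with arrays centred by rows (orange) and the mean of the authors' processed ratios (grey crosses). No fish crosses 0 for any probe. For ITGAE C184R135 at Day 1 and both ITGA2B probes at Day 5, no sample exceeded the negative-control limit. For ITGA1 and ITGB5 at Day 1, and for the probe listed as ITGA2 on both days, some samples did not exceed it.

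**Figure D4:**
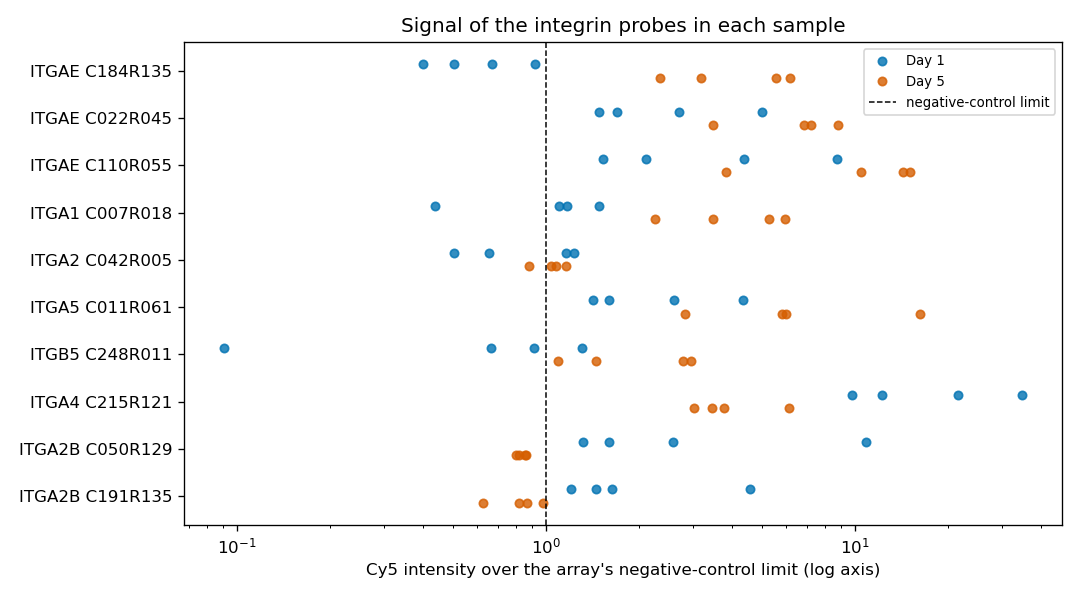
Cy5 intensity of each integrin probe divided by the negative-control limit of its array (log axis), with 1 point a sample at Day 1 (blue) and Day 5 (orange); the dashed line is the limit. ITGAE C184R135 lies below the limit in all Day 1 samples and both ITGA2B probes lie below it in all Day 5 samples, while ITGA4, ITGA5 and the other ITGAE probes are above it throughout.

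The probes were listed, and are split here, by their difference between these samples, so that their mean per sample describes the levels only. The mean log2 ratio of the 7 higher probes in Fish 1 to Fish 4 was -2.39, -1.06, -1.35 and -1.67 at Day 1 and 0.44, 0.93, 0.77 and 0.61 at Day 5. The Day 1 sample of Fish 1 gave the lowest Day 1 value for 6 of these 7 probes. For the 3 lower probes the mean was 0.59, -0.18, 0.34 and 0.03 at Day 1 and -1.24, -0.90, -0.83 and -1.31 at Day 5. In each sample between 6 and 9 of the 10 probes exceeded the negative-control limit.

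The integrin ligands were described from a list of 35 symbols, of which 5 were in the study's list and could be named: FN1, VCAM1, MFGE8, TGFBI and ADAM23. Since those symbols were listed for a change on these arrays, their counts are no evidence of a direction. Over all 1415 tested symbols of that list, 54.6% were higher at Day 5 and 32.7% had a called probe, with a median log2 change of 0.60. On the mean of its probes, 4 of the 5 were higher and 1 was lower, 2 were called higher and 0 lower, and the median log2 change was 1.28. MFGE8, a milk fat globule protein that bridges dying cells and integrins of phagocytes, rose by 3.07 ± 0.39 (SE) on the log2 scale, from a range of -3.35 to -1.75 at Day 1 to 0.27 to 1.16 at Day 5. TGFBI, a secreted matrix protein that integrins bind, had 5 probes between 1.07 and 1.42, of which C127R044 (1.42 ± 0.31) and C076R064 (1.34 ± 0.30) passed the threshold. VCAM1, the ligand of the ITGA4 integrin, had values of 1.35 ± 0.40 and 1.14 ± 0.35 that did not pass, although the days did not overlap with either probe. ADAM23, a membrane protein with a disintegrin domain, stood at -1.41 ± 0.35 and did not pass either. It exceeded the limit in 0 of 4 Day 5 samples, and set against the floor its Cy5 signal was 2.40-fold lower at Day 5. FN1, fibronectin itself, was chosen after its values were seen, as the ligand of the ITGA5 integrin. It stood at 1.29 ± 0.35 with no overlap, from a range of -1.93 to -0.01 at Day 1 to 0.30 to 0.54 at Day 5, and was not called.

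Of 50 adaptor and signalling genes of integrins, 13 could be named in the same way, 8 of them higher and 5 lower at Day 5, with a median log2 change of 0.74. The threshold was passed by 1 of them in the higher and 0 in the lower direction, where 32.7% of the listed symbols had a called probe. With limma 17 of the 18 ligand and adaptor symbols had a probe with an unadjusted p under 0.05, and paired SAM called 5 symbols higher and 2 lower. Over all probes, 5139 of 38695 had such a p, and SAM called 659 higher and 592 lower of 26008. Those are counts of single probes that were not chosen. The symbols were listed with a paired SAM on these arrays, and any of their probes could count, so nothing is read from the difference. The called gene was TGM2, a transglutaminase that crosslinks matrix and binds fibronectin beside integrins, which rose by 2.34 ± 0.49 (SE) on the log2 scale, from -2.43 ± 0.96 to -0.09 ± 0.74 (SD, n = 4). SRC, a kinase that acts downstream of integrins, gave 1.43 ± 0.41 and 1.27 ± 0.36 with its probes, neither past the threshold. CD9, a tetraspanin that sits beside integrins in the membrane, gave 1.62 ± 0.40 with one probe and -0.80 ± 0.41 with the other, measured in 3 fish, so that its probes disagreed in sign. Neither CD9 probe was called.

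**Figure D5:**
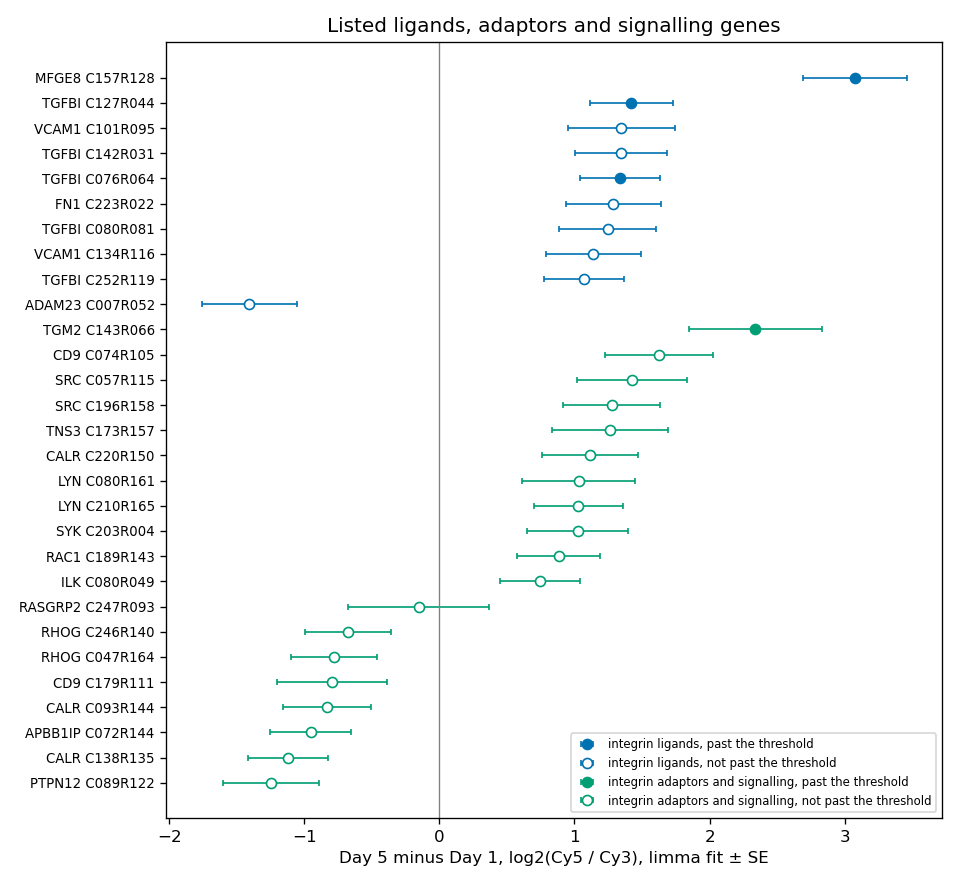
Fitted Day 5 minus Day 1 in log2(Cy5 / Cy3), limma estimate ± SE, for each probe of the listed integrin ligands (blue) and adaptors and signalling genes (green); filled points passed the threshold. MFGE8 at 3.07 and TGM2 at 2.34 are the largest, and the filled points are all on the higher side.

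Markers of the cell types that carry these integrins moved between the same samples, and their part in the integrin values was not tested. All of these markers, too, could be named only where the study had listed them, and the counts below stand beside the 54.6% higher and 32.7% called among all tested symbols of that list. Beside ITGA2B, 5 of 13 thrombocyte markers were named, and 1 was higher and 4 were lower, with 1 called higher and 0 lower and a median log2 change of -1.05. Their mean log2 ratio per sample was taken over those of their 9 probes that had a value. It lay between -0.21 and 0.41 at Day 1 and between -0.63 and -0.20 at Day 5. In Fish 1 to Fish 4 it differed by -0.57, -0.06, -0.06 and -1.04. SELP had 2 values at Day 5 and RASGRP2 had 2 at Day 1, so these differences do not all compare the same probes. SELP, the P-selectin of platelets, stood at -1.89 ± 0.45 in the 2 fish with both values, and NBEAL2, needed for platelet granules in mammals, at -1.23 ± 0.33 and -1.03 ± 0.30. GFI1B, a transcription factor of thrombocyte and erythroid precursors, had 4 probes that disagreed, from 1.96 ± 0.33 (called higher) to -1.52 ± 0.37.

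Beside ITGAE and ITGA4, which lymphocytes carry, 8 T and NK cell markers of 14 listed were tested, and 8 were lower, with 1 called and a median log2 change of -1.29. Their mean log2 ratio per sample was taken over the probes present, which differed between samples. It lay between -0.08 and 1.19 at Day 1 and between -1.41 and -0.32 at Day 5. CD5, a surface protein of T cells, fell by 1.42 on the log2 scale, whereas CD8B stood at -1.81 ± 0.45 in the 3 fish with both values and EOMES, a transcription factor of cytotoxic lymphocytes, at -1.46 ± 0.38, both short of the threshold. The 3 ITGAE probes and these markers were all listed for a change on these arrays, so nothing is read from their opposite directions. Which cells carried ITGAE was not tested. Of 3 B cell markers tested, 1 was called higher (CD22) and 2 were called lower (CD79A and IGHM). CD22 exceeded the limit in 0 of 4 Day 1 samples, and set against the floor its Cy5 signal was 2.62-fold higher at Day 5. Only some of the IGHM probes were called, and several exceeded the limit in 0 of 4 Day 5 samples. Of 7 erythroid markers 7 were lower, 5 of them called, and of 4 neutrophil markers 2 were higher and 2 lower, with 1 called lower (CXCR1).

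Of 10 macrophage markers, 8 could be tested, because only those were in the study's list of changed probes. All 8 were higher at Day 5, 5 of them called, with a median log2 change of 1.66. These counts cover only markers listed for a change on these arrays, so they are no evidence about macrophage markers in general. Their mean log2 ratio, again over the probes present, lay between -1.38 and -0.997 in the Day 1 samples and between 0.12 and 0.74 in the Day 5 samples. With its most changed probe LPL, a lipase that macrophages secrete, rose by 4.41 ± 0.31. In the same way CSF1R, the receptor of the macrophage growth factor, rose by 3.12 ± 0.39, and MRC1, the mannose receptor, by 2.49 ± 0.40. The least changed probe gave 1.78 for LPL (called), 1.23 for CSF1R and 0.89 for MRC1 (neither called). Some of these values include signal near background at Day 1. The most changed probe exceeded the limit in 2 of 4 Day 1 samples for LPL and in 3 of 4 for MRC1. The least changed CSF1R probe exceeded it in 0 of 4, and set against the floor its Cy5 signal was 1.86-fold higher at Day 5. Fibroblast, smooth muscle and endothelial markers, relevant to ITGA1, ITGA5 and ITGB5, were named for 5 of 17, and 3 were higher and 2 lower, with 1 called higher. This was CDH11, a cadherin of mesenchymal cells, at 2.74 ± 0.50 from the 2 fish with both values, whereas ACTA2, smooth muscle actin, stood at -1.21 ± 0.33 and KDR, an endothelial receptor, at 1.19 ± 0.31, neither called. ACTA2 exceeded the limit in 0 of 4 Day 5 samples and KDR in 0 of 4 Day 1 samples, so these values include signal near background. The mean log2 ratio of this list was taken over the probes present in each sample. It lay between -0.69 and -0.16 at Day 1 and between -0.19 and 0.36 at Day 5. CDH11 had 3 values on either day and MYL9 had 3 at Day 5, so the means do not all cover the same probes. Nothing is therefore read from the overlap of these ranges.

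The probes most like each subunit over the 8 samples were looked up among 1678 named probes of the study's list, as a description that carries no test. ITGA5 was most like GPC1 (Pearson's r = 0.977), a glypican of the cell surface. Next came a probe left unnamed (r = 0.969) and CTTN (r = 0.966), cortactin of branched actin. The values of GPC1 and CTTN were 0.982 and 0.986 after centring by rows. ITGAE C110R055 was most like GCHFR (0.974), a regulator of GTP cyclohydrolase, MLCK (0.968), myosin light chain kinase, and ARPIN (0.967), an inhibitor of the actin nucleator ARP2/3, which became 0.848, 0.927 and 0.941 after centring. For ITGA1 they were TAP1 (0.998), a peptide transporter of antigen presentation, GADD45A (0.992) and EPHX2 (0.986), an epoxide hydrolase. TAP1 and EPHX2 lie in rows 14 and 17 of the array, close to the ITGA1 probe, while GADD45A lies in row 113, and after centring the 3 values were 0.951, 0.979 and 0.979. For ITGB5 the closest were PEPD (0.991), RGS18 (0.988) and RGS5 (0.985), in rows 20, 12 and 8, and PEPD and RGS18 were also among the closest to the probe listed as ITGA2 (0.955 and 0.952), beside JUP (0.953), the junction protein plakoglobin, in row 20. After centring, the values with ITGB5 were 0.997, 0.958 and 0.969, and those with the probe listed as ITGA2 were 0.908 (PEPD), 0.839 (RGS18) and 0.930 (JUP). On the lower side, ITGA4 was closest to probes left unnamed (0.983 and 0.982), then to IGKC (0.979), an immunoglobulin light chain. ITGA2B C050R129 was closest to DCAF4 (0.994), RPS7 (0.975), a ribosomal protein, and IGH (0.966), an immunoglobulin heavy chain. All of these correlations rest on 4 samples of either day and so largely on the difference between the days.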

How the data were processed

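Two-colour 44K arrays of 8 samples were analysed, grouped by the day and fish number in the labels. The authors extracted spots with ImaGene 9.0 and deposited raw Cy5 and Cy3 intensity values with quality flags, and also processed log2 ratios after background correction, loess normalization and imputation, which were used as an alternative. The deposited saturation and flag columns are other marks, not measurements. Fold changes and test values in the authors' own tables were not used, apart from probe symbols, annotation and contigs.

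Signal means were corrected in limma 3.58.1 (R 4.3.3) with normexp (offset 50) and normalized by loess. A spot was treated as missing when it was flagged or, in the Cy5 or the Cy3 channel, lay within 2 SD of the background around it. Probes with more than 2 missing values were left out. The days were compared in a model with fish as a block (lmFit, eBayes), because both samples of a number came from 1 fish, with Benjamini-Hochberg adjustment at 0.05. Deviations of the 2 samples of a fish from the day means correlated at -0.05, -0.08, 0.08 and 0.03, so the pairing rests on origin alone. The number of arrays limits the precision. The procedure was checked on simulated data. The alternatives were other background corrections, normalizations, filters, tests and samples, slide as a random block, and centring by rows.

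Members and lists were chosen with earlier results of these data known. Named were every integrin probe, ligands and adaptors past the threshold and the 4 others with the largest change, up to 3 symbols of a marker list, and the 3 probes most like each subunit. Symbols altered by a spreadsheet or of unclear meaning were left unnamed.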

Additional observations from a re-analysis of the deposited data

How the results depend on the processing

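Over 18 alternatives, 175 of 180 fold changes of single integrin probes stayed within 1 SD between fish, 5 moved further and 0 changed sign. Some alternatives could not move these fold changes. Paired SAM, the fit without the replicate block and the fit on probes without missing values returned the main ones, since no integrin value was missing. Keeping flagged spots could hardly move them, as 0 of the 80 spots were flagged. The count therefore overstates how far the values were tested. ITGAE C184R135 ranged most, from 2.79 to 5.34. Integrin probes called higher and lower numbered 6 and 1. Both became 0 with plain subtraction of the background, no background correction, an offset of 16 or the spot median, where ligand and adaptor symbols called higher fell from 3 to 0. Over all probes limma then called 0, 0, 1 and 2, against 4217, 4393, 4576 and 4042 with an unadjusted p under 0.05. With flagged spots kept, 4 integrin probes were called higher and 0 lower, and 1 ligand or adaptor higher. That setting called 262 higher and 217 lower of all 41868 probes. Integrin probes called lower numbered 2 in paired SAM, 3 with slide as a random block and 2 after centring by rows (with ITGA2B C050R129 in each and C191R135 with slide), the alternative added after seeing the data. Paired SAM is the kind of test with which the study listed these probes, so its calls are not independent of the listing. Ligand and adaptor symbols called higher and lower numbered 5 and 2 in paired SAM, 6 and 4 with slide as a random block, and 7 and 2 after centring by rows. They numbered 7 and 2 in the authors' processed ratios, and 2 were called lower under median centring. Over all probes the main fit called 422 higher and 362 lower of 38695. Paired SAM called 659 and 592 of 26008, and slide as a random block 1328 and 1348 of 38695. Centring by rows gave 731 and 630 of 38695, the processed ratios 563 and 505 of 18108, and median centring 338 and 567 of 38695. Leaving out 1 fish gave 5 to 6 integrin probes higher and 0 to 1 lower. It gave 1 to 3 ligand and adaptor symbols higher and 0 to 1 lower. Over all probes it gave 216 to 394 higher and 125 to 356 lower, of 36002 to 37180. The causes were not tested. Without the replicate block, 6 integrin probes were called higher and 1 lower, and 4 ligand and adaptor symbols higher and 1 lower. Of all 38695 probes, 487 were then called higher and 431 lower. The alternatives for integrin probes outside the study's list were not run, because the files do not name them.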
